A study of Mus musculus with 12 samples.

Results

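The angiogenic ligands and the apelin axis comprise 10 genes, chosen by name: Vegfa, Vegfb, Vegfc, Pgf, Angpt1, Angpt2, Apln, Aplnr, Fgf1 and Fgf2. All 10 had a probe among the 20021 gene symbols named on the array, and their 12 probes, with a pair each for Vegfa and Fgf1, were all among the 30347 probes tested of 39429. Left ventricular RNA of C57/Bl6 mice was hybridised in a single colour (Cy3) to 12 Agilent whole-genome arrays, 3 in each of 4 groups. Control hearts came from wild type mice, and transgenic hearts from mice overexpressing CnAb1. CnAb1 is a splice form of the catalytic subunit of calcineurin, a phosphatase activated by calcium. Each genotype was studied after a sham operation or after TAC, a banding of the aorta against which the left ventricle must then pump at higher pressure. By the protocol the hearts of every group were taken 21 days after their operation, although a separate time label reads 0 for the sham groups. The labels give no age and no promoter for the transgene, and they do not say that the arrays of a group hold RNA of different animals, so that the spread behind the p-values may be technical.

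Growth of capillaries is steered by secreted factors that act on receptors of endothelial cells. VEGF-A is the main signal for sprouting and permeability, and its gene is a target of the hypoxia-inducible factors. VEGF-B and placental growth factor bind the receptor FLT1, and VEGF-C acts mainly on FLT4, the receptor of lymphatic vessels. The angiopoietins act through the receptor TIE2, where angiopoietin-1 stabilises vessels and angiopoietin-2 can oppose it. Apelin, a peptide made largely by endothelial cells, acts on the G protein-coupled receptor encoded by Aplnr and is known in the heart for its effects on contraction and on vessel growth. FGF1 and FGF2 lack a classical secretion signal, bind heparan sulfate and stimulate endothelial cells and fibroblasts. Under pressure load, a match between the growth of heart muscle cells and that of capillaries is a known feature of adaptive hypertrophy.

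Levels are log2 signals relative to the 75th percentile of their array, so a level of 0 is the brightness of that percentile, and levels of different probes are not comparable with each other. That percentile was 8.98 to 9.24 (log2) in control sham, 9.88 to 9.95 in control TAC, 9.49 to 9.51 in transgenic sham and 9.48 to 9.85 in transgenic TAC. A lower level is therefore not always a lower signal before scaling. A probe passed where limma's adjusted p, over all 30347 probes, was under 0.05. On 11 arrays 60.2% to 78.1% of probes were well above background, the array software's test of a spot against its surroundings. Transgenic sham array 2 stood apart, with 37% well above background and a net signal of its negative controls of 48.6, against 15.4 to 21.0 on the other arrays. The probe of Ppp3cb, the calcineurin gene that gives rise to CnAb1, read 1.55 to 1.63 in control sham, 1.21 to 1.33 in control TAC, 1.20 to 1.39 in transgenic sham and 1.38 to 1.47 in transgenic TAC. It was not higher in transgenic sham hearts, and since the sources used here do not say whether it lies in the transgene's variant, it does not check the genotype labels. Markers fitted the labelled tissue: all 8 cardiomyocyte markers were well above background on every array.

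In control hearts, TAC was followed by opposite changes within the VEGF family: Vegfc rose 2.92-fold, whereas Vegfb fell by 1.76-fold and Pgf by 1.86-fold. These changes are relative to the subtracted percentile, which was itself higher in control TAC (9.88 to 9.95) than in control sham (8.98 to 9.24). Whether the signals of Vegfb and Pgf fell before scaling was not tested. The apelin receptor gene Aplnr rose 2.67-fold, and its ligand gene Apln did not pass. In transgenic hearts none of the 12 probes passed for TAC. Of the 12 member probes 4 passed in control hearts, 2 in each direction, where 21.2% of all probes passed (8.71% higher and 12.5% lower). The median log2 difference was -0.57 over the member probes and -0.12 over all probes tested.

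**Figure D1:**
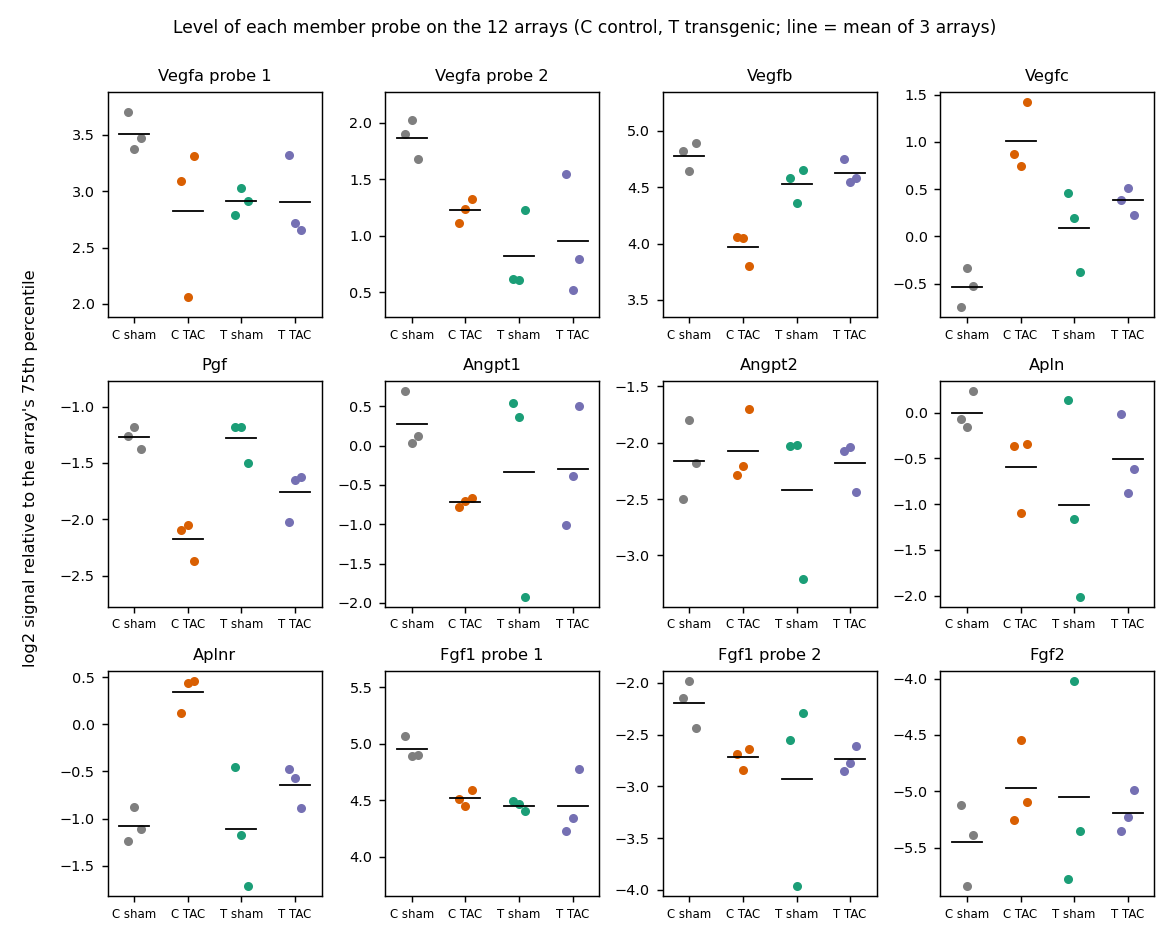
Each panel plots a member probe, with the log2 signal relative to the array's 75th percentile on the y axis and the 4 groups on the x axis; points are the 3 arrays of a group and the line is their mean. Vegfb and Pgf sit lowest, and Vegfc and Aplnr highest, on the 3 control TAC arrays, while the panels of Angpt1, Apln and Fgf2 show a wide spread among the transgenic sham arrays.

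Of the 10 genes, 6 matched an entry in the promoter table of RefSeq for the assembly GRCm38.p6. Entries on a single chromosome were left out of this match, so a gene without a match may still have an entry. Angpt1, Angpt2, Aplnr and Fgf1 are named only. The 250 bases before the transcription start are shown for the 3 genes of the VEGF family that passed after TAC in control hearts, since Vegfb and Pgf fell together and Vegfc rose. They lie at chr19:6987652-6987901 on the minus strand (Vegfb), chr8:54077282-54077531 on the plus strand (Vegfc) and chr12:85177314-85177563 on the minus strand (the first of 2 windows of Pgf), and are written 5′ to 3′ in the direction of transcription. Capitals mark ACGTG or GCGTG, the core letters of a hypoxia response element, and GGAAA, the core letters bound by NFAT, the transcription factor that calcineurin dephosphorylates, on either strand.
Vegfb: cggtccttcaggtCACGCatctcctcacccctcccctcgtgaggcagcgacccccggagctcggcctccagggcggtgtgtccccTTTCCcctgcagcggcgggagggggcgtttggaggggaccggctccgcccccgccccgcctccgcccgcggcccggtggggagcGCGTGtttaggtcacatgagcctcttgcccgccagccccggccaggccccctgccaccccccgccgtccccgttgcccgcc
Vegfc: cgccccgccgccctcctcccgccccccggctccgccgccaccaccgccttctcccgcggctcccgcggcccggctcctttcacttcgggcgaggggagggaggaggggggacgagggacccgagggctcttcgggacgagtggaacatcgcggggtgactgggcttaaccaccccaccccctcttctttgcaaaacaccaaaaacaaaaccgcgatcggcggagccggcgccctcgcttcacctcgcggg
Pgf: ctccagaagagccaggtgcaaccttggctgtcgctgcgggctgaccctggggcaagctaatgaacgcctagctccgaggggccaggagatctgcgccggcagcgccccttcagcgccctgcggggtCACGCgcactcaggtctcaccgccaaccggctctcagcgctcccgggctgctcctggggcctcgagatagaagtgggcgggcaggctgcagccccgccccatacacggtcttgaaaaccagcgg

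The hypoxia core letters stood 237 and 81 bases before the start of Vegfb and 124 bases before that of Pgf. The second window of Pgf, at chr12:85175983-85176232 on the minus strand, held neither motif. The NFAT core letters occurred once in Vegfb, 165 bases before the start. The window of Vegfc held neither. Among members that did not pass, the hypoxia letters stood in the second window of Vegfa (218 and 211 bases before the start) and in Fgf2 (72). That Vegfa window, chr17:46025164-46025413 on the minus strand, lies downstream of the first, chr17:46032378-46032627. Its letters therefore lie past the first Vegfa start in the direction of transcription, not before it. They were absent from the first window of Vegfa and from Apln. The NFAT letters stood in both Vegfa windows and in Fgf2, and not in Apln. Both motifs are common by their length: ACGTG or GCGTG was found in 38.6% and GGAAA in 55.6% of the 32851 windows of 250 bases in the table. A match is a description of letters, and no binding was measured.

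Vegfb encodes a ligand of FLT1 that the heart makes in quantity and that is known for coronary vessel growth and fatty acid uptake. Its level was 4.82, 4.64 and 4.89 on the control sham arrays and 4.06, 4.05 and 3.80 on the control TAC arrays. On the transgenic arrays it was 4.58, 4.36 and 4.65 after sham and 4.75, 4.55 and 4.58 after TAC. The control TAC arrays were thus the lowest of all 12, and did not overlap any other group. The difference of TAC from sham was -0.81 ± 0.13 (log2, SE) in control hearts (adjusted p = 0.00304) and 0.09 ± 0.13 in transgenic hearts (95% confidence interval -0.19 to 0.38, adjusted p = 0.881). Ordered by their means, control sham (4.78 ± 0.13, SD, n = 3), transgenic TAC (4.63 ± 0.11) and transgenic sham (4.53 ± 0.15) differed from their neighbours by about their spread or less, and control TAC (3.97 ± 0.15) lay below them.

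Vegfc encodes the chief growth factor of lymphatic vessels. It read -0.75, -0.33 and -0.53 on control sham arrays, against 0.87, 0.74 and 1.42 on control TAC arrays. Transgenic hearts gave 0.46, 0.19 and -0.38 after sham and 0.39, 0.51 and 0.23 after TAC. The 3 control TAC arrays were the highest of the 12, the transgenic groups overlapped each other, and their means, 0.09 ± 0.43 and 0.38 ± 0.14 (SD), lay between those of the control groups. The rise in control hearts was 1.55 ± 0.24 (adjusted p = 0.00304), and the difference in transgenic hearts was 0.29 ± 0.24 (-0.25 to 0.82, adjusted p = 0.825).

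Pgf encodes placental growth factor, a FLT1 ligand known mostly from injured or growing tissue. It measured -1.26, -1.18 and -1.38 in control sham and -2.09, -2.05 and -2.37 in control TAC hearts. The transgenic arrays gave -1.18, -1.18 and -1.50 after sham and -2.02, -1.65 and -1.62 after TAC. In both genotypes all TAC arrays were below all sham arrays, and Pgf was the only member probe of which this held in transgenic hearts, where 8.68% of all probes had groups that did not overlap. The fall passed in control hearts (-0.90 ± 0.15, adjusted p = 0.00424), and the transgenic difference of -0.48 ± 0.15 did not (-0.82 to -0.14, adjusted p = 0.787). The difference between the 2 responses, 0.42 ± 0.21, did not pass either (adjusted p = 0.26).

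Vegfa, which encodes VEGF-A, was measured by a pair of probes designed to different transcript accessions, and neither passed in any comparison. Probe 1 read 3.70, 3.37 and 3.47 in control sham, 3.09, 2.06 and 3.31 in control TAC, 2.79, 3.03 and 2.91 in transgenic sham and 3.32, 2.72 and 2.66 in transgenic TAC. Probe 2 read 1.90, 2.03 and 1.68 in control sham, 1.11, 1.24 and 1.33 in control TAC, 0.62, 0.61 and 1.23 in transgenic sham and 1.55, 0.52 and 0.79 in transgenic TAC. On both probes all 9 other arrays were below the lowest control sham array. TAC minus sham in control hearts was -0.69 ± 0.30 on probe 1 (adjusted p = 0.137) and -0.64 ± 0.26 on probe 2 (adjusted p = 0.113).

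**Figure D2:**
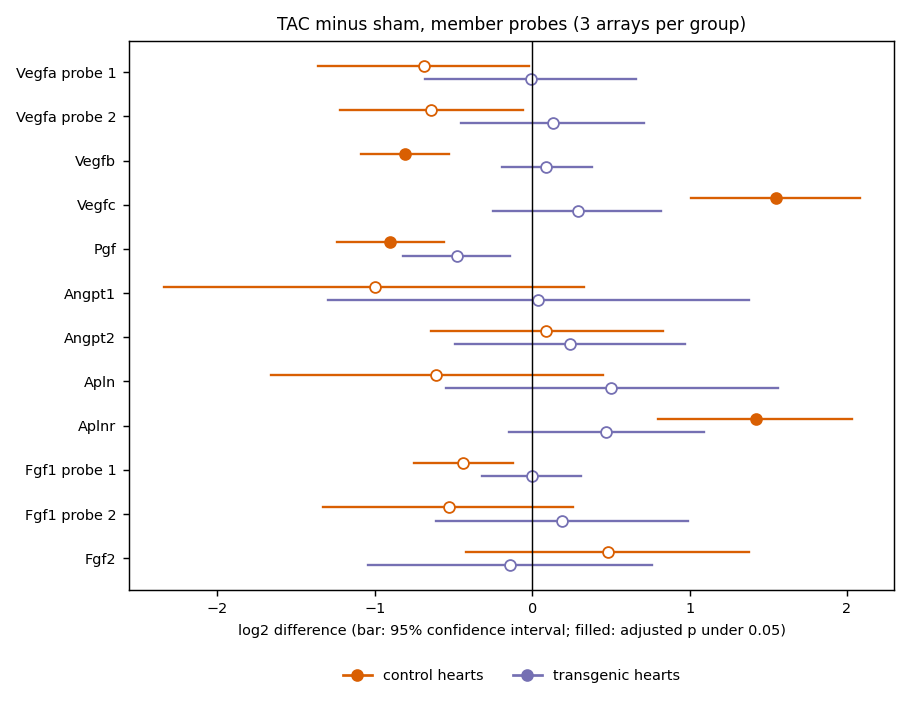
The x axis is the log2 difference of TAC from sham for each member probe on the y axis, in control and in transgenic hearts, with 95% confidence intervals as bars and filled points where the adjusted p was under 0.05. The 4 filled points are Vegfb (-0.81), Vegfc (1.55), Pgf (-0.90) and Aplnr (1.42) in control hearts, and no transgenic point is filled.

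The angiopoietin genes did not pass in any comparison. Angpt1 measured 0.69, 0.04 and 0.12 in control sham and -0.78, -0.70 and -0.67 in control TAC hearts, groups that did not overlap. In transgenic hearts it was scattered, with 0.54, 0.36 and -1.92 after sham and -1.01, -0.39 and 0.50 after TAC. The value of -1.92, on transgenic sham array 3, was the lowest of the 12. The differences after TAC were -1.0 ± 0.60 in control hearts (adjusted p = 0.278) and 0.04 ± 0.60 in transgenic hearts (adjusted p = 0.99). Angpt2 lay between -2.50 and -1.70 on the 6 control arrays, between -3.21 and -2.02 on transgenic sham arrays and between -2.44 and -2.04 on transgenic TAC arrays, with its groups overlapping throughout. It was not well above background on transgenic sham array 2, and its differences after TAC were 0.09 ± 0.33 in control and 0.24 ± 0.33 in transgenic hearts.

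Apelin and its receptor were measured by a probe each. Aplnr read -1.24, -0.88 and -1.11 in control sham hearts and 0.12, 0.44 and 0.46 in control TAC hearts. Transgenic hearts gave -0.45, -1.17 and -1.71 after sham and -0.47, -0.57 and -0.89 after TAC. The 3 control TAC arrays were the highest of the 12, and the other groups overlapped. The rise in control hearts was 1.42 ± 0.28 (adjusted p = 0.00725), and the transgenic difference was 0.47 ± 0.28 (-0.15 to 1.09, adjusted p = 0.802). Ordered by mean, control TAC (0.34 ± 0.19, SD) was followed by transgenic TAC (-0.64 ± 0.22), control sham (-1.08 ± 0.18) and transgenic sham (-1.11 ± 0.63), and the last pair differed by less than their spread.

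Apln did not follow its receptor. It read -0.07, -0.16 and 0.23 in control sham, -0.37, -1.10 and -0.34 in control TAC, 0.14, -1.16 and -2.01 in transgenic sham and -0.02, -0.88 and -0.62 in transgenic TAC hearts. All control TAC arrays were below all control sham arrays, and the transgenic sham arrays spanned a wider range than any other group. The differences after TAC were -0.61 ± 0.47 in control (adjusted p = 0.419) and 0.50 ± 0.47 in transgenic hearts (adjusted p = 0.838).

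Fgf1, the acidic fibroblast growth factor gene, had a bright and a dim probe. The bright probe read 5.07, 4.89 and 4.90 in control sham, 4.51, 4.45 and 4.59 in control TAC, 4.49, 4.47 and 4.40 in transgenic sham and 4.23, 4.34 and 4.78 in transgenic TAC. All control sham arrays lay above the other 9 arrays. The difference after TAC was -0.44 ± 0.14 in control hearts, just outside the threshold (adjusted p = 0.0538), and 0.00 ± 0.14 in transgenic hearts. The dim probe ranged from -2.44 to -1.98 in control sham, -2.84 to -2.64 in control TAC, -3.96 to -2.29 in transgenic sham and -2.85 to -2.61 in transgenic TAC, and its difference in control hearts was -0.53 ± 0.36 (adjusted p = 0.337). The lowest of these values came from transgenic sham array 2, where the probe was not well above background. Without that array, whose spread enters the fit of all groups, the same difference of -0.53 passed (adjusted p = 0.028).

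Fgf2, the basic fibroblast growth factor gene, was close to background: its probe, the mean of 10 spots, was well above background on 9 of the 12 arrays. It ranged from -5.84 to -5.12 in control sham, -5.26 to -4.55 in control TAC, -5.78 to -4.02 in transgenic sham and -5.35 to -4.99 in transgenic TAC. The groups overlapped, and the differences after TAC were 0.48 ± 0.40 in control and -0.14 ± 0.40 in transgenic hearts. Without transgenic sham array 2 the transgenic difference was 0.38 (adjusted p = 0.999), of opposite sign. Across the members, 10 of the 12 probes had control TAC arrays that did not overlap the control sham arrays, all but Angpt2 and Fgf2, where 46.6% of all probes did so.

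The arrays lay on 5 slides: control sham on slides 3, 3 and 5, control TAC on 2, 3 and 2, transgenic sham on 2, 3 and 1, and transgenic TAC on 4, 4 and 2. Slides 1, 4 and 5 held a single group each, so group and slide were partly confounded. The calls for Vegfb, Vegfc, Pgf and Aplnr in control hearts held without each of the 12 arrays in turn and were lost with the slide as a fixed block (-0.78, 1.32, -0.88 and 1.25, adjusted p from 0.0588 to 0.0692). Slide effects and the few arrays left to compare within slides cannot be told apart in this loss. On the slide that held both control groups, 1 TAC array minus the mean of 2 sham arrays gave -0.68 for Vegfb, 1.28 for Vegfc, -0.83 for Pgf and 1.5 for Aplnr. With another background correction (normexp) Pgf was -0.38 and did not pass (adjusted p = 0.475).

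None of the 12 member probes passed for TAC in transgenic hearts by limma, 1 of them, Pgf, with an unadjusted p under 0.05. Over all probes 0% passed there, with 1905 probes at an unadjusted p under 0.05. Without transgenic sham array 2, again 0 of the 12 passed. The median log2 difference was 0.11 over the member probes and -0.01 over all. On the slide that held an array of each transgenic group, TAC minus sham was 0 for Vegfb, -0.23 for Vegfc, -0.44 for Pgf and -0.44 for Aplnr, so that the last and Vegfc had the opposite sign to the estimates over all arrays.

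The difference between the responses was tested directly as the interaction, the transgenic difference of TAC from sham minus the control one. Vegfb passed, at 0.91 ± 0.18 (adjusted p = 0.0244), as 1 of 12 member probes where 7.21% of all probes passed (4.24% higher and 2.97% lower). Vegfc followed just outside the threshold at -1.26 ± 0.34 (adjusted p = 0.0531). Aplnr measured -0.95 ± 0.39 (adjusted p = 0.166). Vegfa measured 0.68 ± 0.43 and 0.77 ± 0.37 on its probes, Apln 1.11 ± 0.67, Angpt1 1.05 ± 0.85 and the bright probe of Fgf1 0.43 ± 0.20, with adjusted p from 0.211 to 0.483. The interaction of Vegfb was 0.82 without transgenic sham array 2 (adjusted p = 0.0467), was lost without control sham array 1 or 3, control TAC array 3 or transgenic TAC array 1, and was 0.87 with the slide as a fixed block (adjusted p = 0.176). With quantile normalization it was 0.67 (adjusted p = 0.0587).

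Genotype was compared within each surgery; these comparisons share their arrays with those of TAC, so their values are not independent of them. In TAC hearts, Vegfb was 1.57-fold higher in transgenic than in control hearts (0.65 ± 0.13, adjusted p = 0.0272), the only 1 of the 12 member probes to pass, where 4.01% of all probes passed (2.17% higher and 1.85% lower). Aplnr (-0.98 ± 0.28, adjusted p = 0.0762), Vegfc (-0.63 ± 0.24, adjusted p = 0.156) and Pgf (0.41 ± 0.15, adjusted p = 0.15) had groups that did not overlap and did not pass. That made 4 of 12 member probes with groups that did not overlap, where 33.1% of all probes did so. On the slide that held 1 transgenic and 2 control TAC arrays the differences were 0.65 for Vegfb, -1.18 for Aplnr, -0.91 for Vegfc and 0.61 for Pgf. The call for Vegfb was lost in 6 of the 12 fits without an array, those without control sham array 1, control TAC array 1 or 3, or any of the 3 transgenic TAC arrays, and with the slide as a fixed block (0.60, adjusted p = 0.321).

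In sham hearts no member probe passed between the genotypes, where 1.27% of all probes passed; 3 (Vegfa probe 2, the bright Fgf1 probe and Vegfc) had an unadjusted p under 0.05, and 5223 of all probes did. Transgenic minus control was -1.05 ± 0.26 on Vegfa probe 2 (adjusted p = 0.0869), -0.61 ± 0.30 on Vegfa probe 1 (adjusted p = 0.338) and -0.50 ± 0.14 on the bright Fgf1 probe (adjusted p = 0.121). Both Vegfa probes and the bright Fgf1 probe had transgenic sham arrays entirely below the control sham arrays, where 22.3% of all probes had groups that did not overlap. Vegfc measured 0.63 ± 0.24 (adjusted p = 0.221) and Apln -1.01 ± 0.47 (adjusted p = 0.308). Vegfb (-0.25 ± 0.13), Pgf (-0.01 ± 0.15) and Aplnr (-0.03 ± 0.28) gave smaller differences. Without transgenic sham array 2, Vegfa probe 2 measured -0.94 (adjusted p = 0.222).

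**Figure D3:**
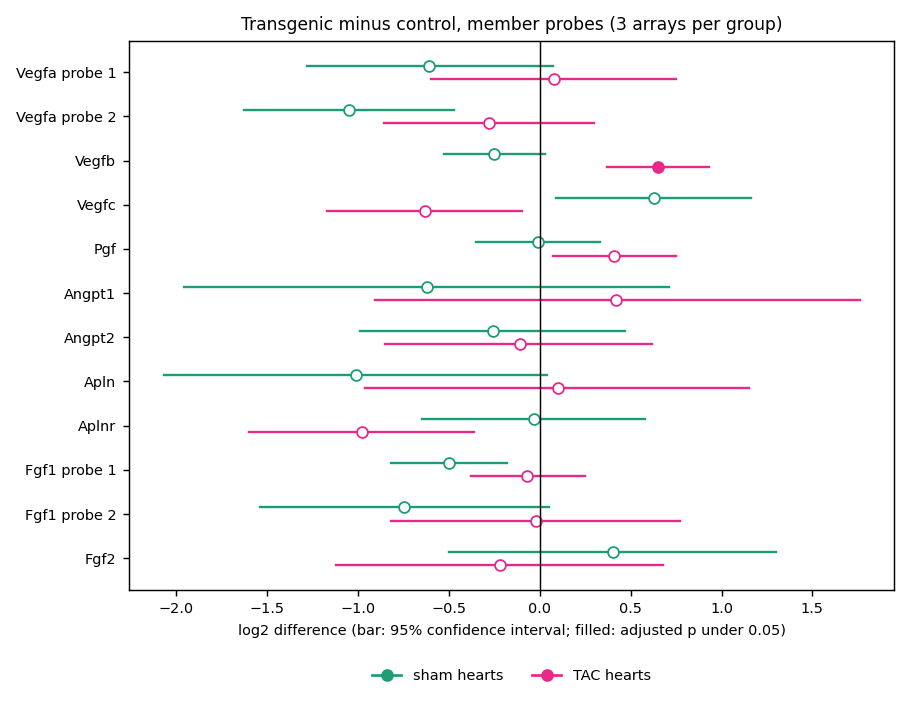
The x axis is the log2 difference of transgenic from control hearts for each member probe on the y axis, in sham and in TAC hearts, with 95% confidence intervals as bars and filled points where the adjusted p was under 0.05. Vegfb in TAC hearts, at 0.65, is the only filled point, and Vegfa probe 2 in sham hearts (-1.05) and Aplnr in TAC hearts (-0.98) lie farthest from 0 among the intervals that do not reach it.

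The receptors and neighbours of these ligands were taken from 8 lists, counted by the brightest probe of each gene. Of 71 genes tested, 19 rose and 6 fell in control hearts after TAC. Over all probes 21.2% passed there, 8.71% higher and 12.5% lower, and those shares include dim probes. Of the 14289 probes well above background on all 12 arrays, fitted alone, 6010 passed, 1942 higher and 4068 lower. The same shares apply to each list below. In transgenic hearts 0 of 71 passed by limma, with 9 at an unadjusted p under 0.05. Among the 5 VEGF receptors and neuropilins, 3 rose and 1 fell in control hearts, with a median of 0.82. Nrp2, a co-receptor of VEGF-C, measured 1.36, 1.76 and 1.65 on sham and 2.84, 2.58 and 3.07 on TAC arrays, a rise of 1.24 ± 0.20 (adjusted p = 0.00345), and its other probe rose by 1.01. Nrp1, a co-receptor of VEGF-A, rose by 0.91 ± 0.17 (adjusted p = 0.00675). Flt4, the receptor of VEGF-C, rose by 0.82 ± 0.21 (adjusted p = 0.0212).

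Kdr, the main signalling receptor of VEGF-A, fell by 0.66 ± 0.18 on its brighter probe (adjusted p = 0.029), while its other probe measured 0.34 (adjusted p = 0.343), so the pair disagreed. Flt1, the receptor of VEGF-B and placental growth factor, measured 0.22 ± 0.44 and did not pass (adjusted p = 0.783). Of 3 angiopoietin receptor genes, Tie1 rose by 0.74 ± 0.15 (adjusted p = 0.00783), Ptprb, the phosphatase that acts on TIE2, by 0.71 ± 0.16 (adjusted p = 0.0143), and Tek, which encodes TIE2 itself, measured 0.58 ± 0.22 (adjusted p = 0.0917). The median was 0.71. Among 6 tested FGF receptors and co-receptors only Fgfr1 rose, by 1.10 ± 0.21 (adjusted p = 0.0065); a further Fgfr1 probe rose by 0.81 and the last measured -0.35 (adjusted p = 0.291). The median of these 6 was -0.07.

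Of 11 other angiogenic ligands tested, 1 rose and 1 fell, where 8.71% of all probes passed as higher and 12.5% as lower. Egfl7, an endothelial matrix protein that is also on the endothelial marker list, rose by 0.51 ± 0.15 (adjusted p = 0.035), and Adm, the vasodilator adrenomedullin, fell by 0.56 ± 0.15 (adjusted p = 0.025), with a median over the 11 of 0.39. Vegfd, which shares its receptors with Vegfc, measured 0.49 ± 0.24 (adjusted p = 0.18) and Pdgfc 1.06 ± 0.36 (adjusted p = 0.0608). Apela, the other ligand of the apelin receptor, had no probe matched to it.

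Tip cell and Notch genes are known from sprouting endothelium and its restraint. Of these, 6 of 12 passed as higher and 0 as lower, where 8.71% and 12.5% of all probes did so. Their median was 0.58. Esm1, a marker of tip cells, measured -3.07, -2.45 and -2.51 on sham and 0.64, -0.43 and -0.39 on TAC arrays of control hearts, a rise of 2.62 ± 0.53 (adjusted p = 0.00825). The basement membrane gene Nid2 rose by 1.56 ± 0.22 (adjusted p = 0.00222) and Unc5b, a netrin receptor of tip cells, by 1.56 ± 0.24 (adjusted p = 0.00304). Dll4, the Notch ligand of tip cells, measured 0.02 ± 0.23.

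The inhibitors of angiogenesis held the largest difference of the 8 lists, that of Thbs1. Of 10 tested, 4 passed as higher and 1 as lower, where 8.71% and 12.5% of all probes did so. Their median was 0.51. Thbs1, the matricellular inhibitor thrombospondin-1, read -2.68, -2.11 and -3.46 on control sham and 0.69, 0.74 and 2.08 on control TAC arrays (3.92 ± 0.58, adjusted p = 0.00271). Serpinf1, the secreted inhibitor PEDF, read 1.57, 1.83 and 1.45 against 4.49, 4.28 and 4.95 (2.96 ± 0.23, adjusted p = 0.000429). Sema3f, a neuropilin ligand that repels vessels, rose by 1.01 ± 0.24. The lower call, Cnmd, the cartilage inhibitor chondromodulin, was near background: it was well above it on 1 of 3 control sham arrays and on no control TAC array, and its fitted difference of -1.89 (adjusted p = 0.026) was 0.40 with normexp (adjusted p = 0.663), so its direction depended on the background correction.

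Genes of oxygen sensing were mixed. Hif1a, which encodes the inducible subunit of hypoxia-inducible factor 1, read 0.01, 0.05 and 0.12 on control sham and 1.15, 0.94 and 1.67 on control TAC arrays (1.19 ± 0.17, adjusted p = 0.00259). Egln1, which encodes the main prolyl hydroxylase that marks that subunit for destruction, read 1.04, 1.13 and 1.34 against 0.13, 0.03 and 0.36 (-1.0 ± 0.18, adjusted p = 0.00553). The other 7 of these 9 genes did not pass by their brightest probe, and the list's median was -0.22. Of the 3 probes of Epas1, which encodes the subunit HIF-2 alpha, the brightest measured -0.27 (adjusted p = 0.227), another passed as lower (-0.70 ± 0.12, adjusted p = 0.00451) and the last measured -0.16. All 3 had the same sign, and only 1 passed. The passing probe of Epas1 also passed for the interaction (0.73, adjusted p = 0.0372). Of 15 genes known to be induced by hypoxia, Car9, a carbonic anhydrase, rose by 3.23 ± 0.62 (adjusted p = 0.00672), and it was well above background on 2 of 3 sham and 3 of 3 TAC arrays. Vldlr fell by 0.52 ± 0.10 and Higd1a by 0.48 ± 0.12, whereas Slc2a1 (0.27 ± 0.24), Pdk1 (0.06 ± 0.17) and Bnip3 (-0.02 ± 0.20) did not pass, and the median was 0.09.

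**Figure D4:**
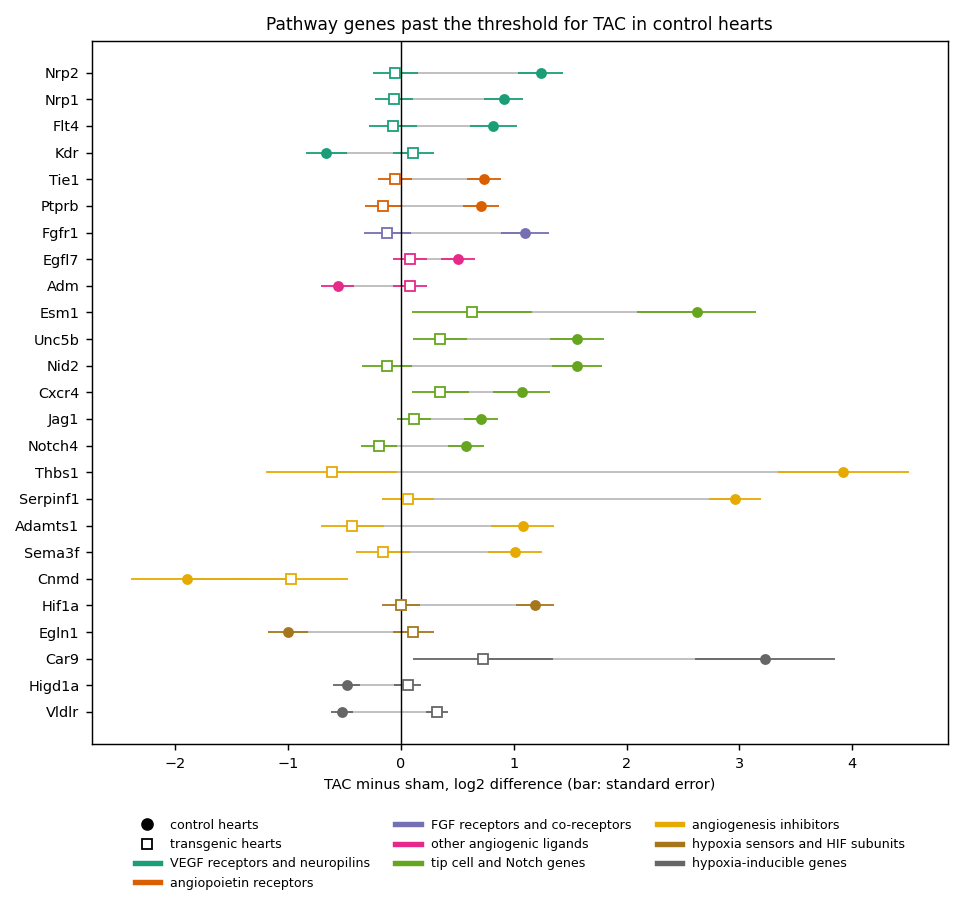
The x axis is the log2 difference of TAC from sham, with its standard error as a bar, for the 25 pathway genes on the y axis that passed in control hearts (filled circles), coloured by list, with transgenic hearts as open squares. The circles of Thbs1 (3.92), Car9 (3.23) and Serpinf1 (2.96) lie farthest right; the genes shown were chosen by their control value, and Cnmd's point is a fitted value of a gene near background.

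The interaction passed for 9 of the 71 pathway genes, 2 higher and 7 lower, where 4.24% of all probes, dim ones included, were higher and 2.97% lower. Serpinf1 (-2.90 ± 0.32, adjusted p = 0.0129) and Thbs1 (-4.53 ± 0.82, adjusted p = 0.0208) were the inhibitors among them. Nrp2 (-1.29 ± 0.28, adjusted p = 0.0302) and Nrp1 (-0.97 ± 0.25, adjusted p = 0.0458) were the VEGF co-receptors. In TAC hearts 7 of 71 pathway genes differed between genotypes, where 4.01% of all probes did. Of the 14289 probes well above background on all arrays, fitted alone, 2993 did. Serpinf1 (-1.84 ± 0.23), Thbs1 (-2.88 ± 0.58), Sema3f (-1.06 ± 0.24), Nrp2 (-0.86 ± 0.20) and Nid2 (-0.97 ± 0.22) were lower in transgenic hearts, and Egln1 (0.86 ± 0.18) and Adm (0.70 ± 0.15) were higher, with adjusted p from 0.00553 to 0.0452. The dimmer probe of Ptprb was also lower (-0.80 ± 0.18, adjusted p = 0.0409), while its brightest did not pass. In sham hearts 1 differed, Vldlr, lower in transgenic hearts by 0.64 on the log2 scale (adjusted p = 0.0244), a call lost without transgenic sham array 2 or any of the 3 control sham arrays. With the slide as a fixed block 1 of the 25 calls for TAC in control hearts was kept, Serpinf1 (2.78, adjusted p = 0.0456), 25 of 25 kept their sign, and 0 of the 9 interaction calls and 0 of the 7 calls in TAC hearts were kept. With normexp 10 of the 25 calls in control hearts, 0 of the 9 interaction calls and 1 of the 7 calls in TAC hearts were kept. Without transgenic sham array 2, 25 of the 25, 5 of the 9 and 4 of the 7 were kept, in that order. Over the fits without each array, 16 to 25 of the 25 were kept, with 16 without control sham array 1 or 3. Of the 9 interaction calls 7 or 8 were kept without control TAC array 2 or transgenic sham array 1 or 3, and 0 to 5 without any other array, with 0 without control sham array 1, where no probe of all those tested passed. Of the 7 calls in TAC hearts 7 were kept without transgenic sham array 1 or 3, and 1 to 4 without any other array.

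Markers of several cell types of the ventricle moved with the same comparison, TAC in control hearts. Over all probes 21.2% passed there, 8.71% higher and 12.5% lower. Of the 14289 probes well above background on all arrays, fitted alone, 6010 passed. Summed over each list, in units of the array's 75th percentile, where the brightest probes weigh most, the 8 cardiomyocyte markers gave 2810 to 2920 in control sham, 1670 to 1870 in control TAC, 2040 to 2260 in transgenic sham and 1840 to 2190 in transgenic TAC hearts, and 7 of 8 fell after TAC in control hearts. The 10 fibroblast markers gave 95.2 to 150, 309 to 434, 162 to 176 and 156 to 189 in the same order, and 9 of 10 rose. The 12 endothelial markers gave 156 to 223, 183 to 218, 168 to 181 and 151 to 215, ranges that overlapped, with 5 higher and 1 lower after TAC in control hearts. Fabp4 alone gave 80.4 to 135 in control sham hearts. Without it the endothelial sums were 75.4 to 88.1, 89.1 to 102, 73.3 to 78 and 77.4 to 92.2. Control TAC then lay above both sham groups and overlapped transgenic TAC. Of lymphatic markers the sum was 10.6 to 13.9, 17 to 57.4, 10.7 to 18.9 and 9.62 to 15.8, and 1 of 5 tested, Pdpn, which fibroblasts also express, rose. Ccl21a alone gave most of that sum, with 14.6 to 53.1 in control TAC hearts, and the other lymphatic markers summed to 1.45 to 1.92, 2.37 to 4.47, 2.12 to 2.33 and 1.86 to 2.80. Smooth muscle and pericyte markers summed to 40.8 to 45.7, 44.2 to 54.4, 62.1 to 78.1 and 43 to 58.8, with 5 higher and 1 lower of 10 in control hearts. Acta2 alone gave 12 to 13.2 in control sham and 29.0 to 47.2 in transgenic sham hearts, and without it the sums overlapped, at 28.7 to 33.5 and 27.7 to 34.6.

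Macrophage markers ranged from 32.2 to 45.2 over all arrays. After TAC in control hearts 2 of 7 passed, both higher, where 21.2% of all probes passed. Itgam gave most of that sum. Without it the sums were 10.2 to 12.5 in control sham, 12.6 to 17.7 in control TAC, 11.2 to 14.4 in transgenic sham and 12.7 to 13.7 in transgenic TAC hearts. Erythroid markers ranged from 45.1 to 214, with 0 of 4 passing. The sums of mesothelial (0.399 to 1.21) and adipocyte markers (0.174 to 0.868) were small, and Adipoq was not well above background on any array. Without Wt1, the only mesothelial probe well above background on every array, the mesothelial sums were 0.607 to 0.945, 0.122 to 0.322, 0.0693 to 0.314 and 0.164 to 0.358 in the same order. In RNA of whole tissue, fewer cells of a type and less RNA per cell cannot be told apart. The part of the cardiomyocyte, fibroblast and other marker shifts in the values of Vegfb, Vegfc, Pgf and Aplnr was not tested. Whether the bright cardiomyocyte probes neared the upper limit of the scanner's range was not tested. The part in these sums of the subtracted percentile, which was higher in control TAC than in control sham hearts, was not tested either.

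**Figure D5:**
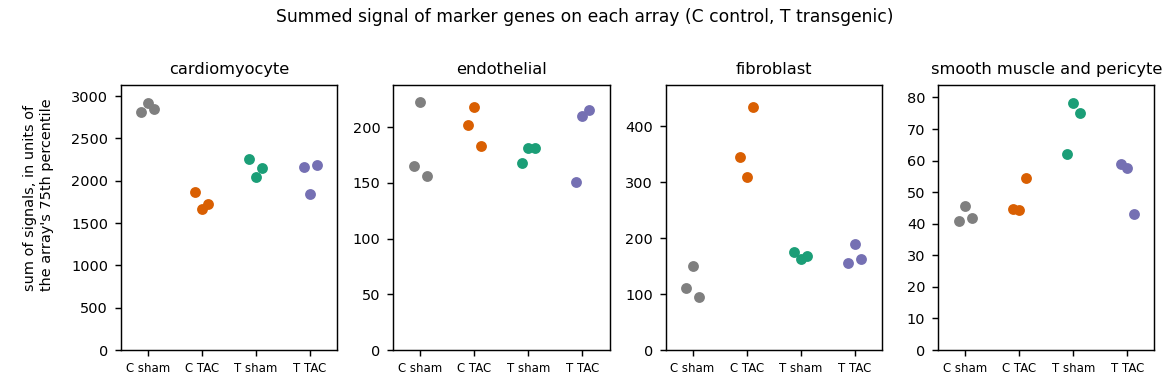
The y axis is the summed signal of the markers of a cell type, in units of the array's 75th percentile and starting at 0, for the 4 groups on the x axis; points are arrays. Cardiomyocyte sums are highest on control sham arrays (2810 to 2920) and fibroblast sums highest on control TAC arrays (309 to 434). Endothelial sums, which include the bright Fabp4, overlap in all groups.

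Among 15972 named genes, those with the pattern closest to a member over the 12 arrays were found by the root mean square difference of centred log2 levels, as a description. For Vegfb these were Pygm, the glycogen phosphorylase of muscle (0.07), Gstp1 (0.08) and Tle5 (0.08). For Pgf they were the potassium channel gene Kcnh2 (0.15), Abcc9 (0.16), which encodes a subunit of a potassium channel gated by ATP, and Npc1 (0.17). Vegfc was closest to Oaf (0.15), Gucy1b1, a subunit of soluble guanylate cyclase (0.16), and Marcksl1 (0.17). Aplnr was closest to Nrep (0.20), Pcdhb17 (0.21) and Pcdh18 (0.22).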

How the data were processed

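Per the file headers, the arrays were scanned with Feature Extraction 10.7.3.1, and the deposited files give each spot's intensity, including a processed signal with background subtracted, and flags for outliers and for spots well above background. The authors deposited a second table in log2 units; it correlated at 0.882 to 0.996 with the processed signals centred on each probe and served as an alternative. The submitters' processing notes name RMA, with its use not given in the sources used here.

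Outlier spots were left out, replicate spots averaged, and each array's 75th percentile subtracted from log2 processed signals. Probes were named by transcript accession through a RefSeq table of GRCm38.p6 (26424 of 39429 probes); the array annotation names mm9, so no probe positions are given, and promoter positions are those of the RefSeq table. Probes that stood well above background on 3 or more of the 12 arrays entered a limma fit (version 3.58.1, R 4.3.3) with a mean per group, two-sided, and Benjamini-Hochberg adjustment over 30347 probes; 8 residual and 1.8 prior degrees of freedom gave a median residual standard deviation of 0.28. The steps were tested on simulated data. No array pair held identical values, and array number limits the precision. The members, lists and tests were chosen with earlier results of these data known. Named are all members, the 2 or 3 pathway probes of smallest p per list and comparison beside genes of the lists given for their role, and the 3 genes closest in pattern; where a passing gene outside these is named, it was chosen after its values were seen. Alternatives changed normalization, filter, variance, blocks and arrays, 26 in all.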

Additional observations from a re-analysis of the deposited data

Results flagged for a closer look

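The TAC response differed between the genotypes by the test of the difference itself, the transgenic response minus the control one. This held for 1 of 12 member probes and 9 of 71 genes of the pathway lists, where 7.21% of all probes passed. Among the members this was Vegfb, at 0.91 ± 0.18 on the log2 scale (limma adjusted p = 0.0244). Among receptors it was Nrp1 (-0.97 ± 0.25, adjusted p = 0.0458), Nrp2 (-1.29 ± 0.28, adjusted p = 0.0302) and Fgfr1 (-1.22 ± 0.29, adjusted p = 0.0405). The 2 further probes of Fgfr1 did not pass and differed in sign, at -0.91 (adjusted p = 0.0517) and 0.65 (adjusted p = 0.21). Among genes of oxygen sensing and the response to hypoxia it was Hif1a (-1.20 ± 0.25, adjusted p = 0.0271), Egln1 (1.11 ± 0.26, adjusted p = 0.0356) and Vldlr (0.84 ± 0.14, adjusted p = 0.0187). Among inhibitors it was Thbs1 (-4.53 ± 0.82, adjusted p = 0.0208) and Serpinf1 (-2.90 ± 0.32, adjusted p = 0.0129). Nid2, of the tip cell list, measured -1.69 ± 0.31 (adjusted p = 0.0212). None of these calls, of the member or of the pathway genes, was kept with the slide as a fixed block or with normexp. Each group held 3 arrays, too few for a test of single arrays that stand apart.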

How the results depend on the processing

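Of 1523 member values under 26 alternatives, 1466 stayed on the same side of the threshold, 26 called values no longer passed and 31 uncalled ones passed; direction was read only where a value passed, and 86 uncalled values changed sign. The 4 member calls for TAC in control hearts kept their direction under every alternative run. Counts of member probes and of all probes called moved as follows from their reported values. For TAC in control hearts (4 and 6443), array weights gave 9 and 12281, the compared groups alone 8 members, normexp 1750 of all probes, and slide as a fixed block 0 and 294. For genotype in sham hearts (0 and 386), the filter on all arrays gave 2 and 1246, a trended robust variance 2 and 1089, quantile normalization 184, median scaling 201, normexp 41, no filter 121, array weights 176, the compared groups alone 32, a replicate block 116 and slide as a fixed block 21. For genotype in TAC hearts (1 and 1218), median scaling gave 0 and 500, normexp 0 and 38, no filter 0 and 397, the compared groups alone 0 and 80, a replicate block 0 and 405, slide as a fixed block 0 and 11, the filter on all arrays 2 and 2993, a trended robust variance 2 and 2643, and array weights 2 and 4043. For the interaction (1 and 2188), quantile normalization gave 0 and 991, median scaling 0 and 709, normexp 0 and 0, no filter 0 and 572, slide as a fixed block 0 and 0, a replicate block 816 of all probes, the filter on all arrays 2 and 3763, a trended robust variance 2 and 3576, and array weights 2 members; the compared groups alone cannot give an interaction. Leaving out each array in turn gave 4 to 6 members and 3337 to 7394 probes for TAC in control hearts, 0 and 0 to 2 for TAC in transgenic hearts, 0 to 1 and 76 to 705 for genotype in sham, 0 to 2 and 180 to 1640 for genotype in TAC, and 0 to 3 and 0 to 2818 for the interaction, 0 without control sham array 1. The split into higher and lower calls for the interaction, 1287 and 901, was 372 and 619 with quantile normalization and 258 and 451 with median scaling. For TAC in control hearts 2643 and 3800 became 2517 and 2355 with quantile normalization, and for genotype in sham 205 and 181 became 138 and 46, or 145 and 56 with median scaling, but 402 and 844 with the filter on all arrays, 364 and 725 with a trended robust variance and 289 and 416 without transgenic sham array 1. Normexp, which used median spot signals in place of processed ones, moved the median of all probes for TAC in control hearts from -0.12 to 0.26; Cnmd, near background, was reversed under it, at 0.40 (adjusted p = 0.663) against -1.89. The array numbers do not pair the groups: of 18 pairs of arrays with the same number in different groups, 7 correlated over 0.1 (-0.23 to 0.28). The cause of these moves was not tested.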
